A study of Mus musculus with 3 samples.

Results

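Of 20525 mouse genes with at least 1 RefSeq coding transcript in the deposited transcript models of C2C12 cells, 3514 had several, and 1112 of these are described here. They were chosen by 2 criteria. The gene carried 2 or more NM_ transcripts (RefSeq's curated coding mRNAs) under a single symbol, on a single strand and at a single place. The FPKM (mapped fragments per length of transcript, scaled by library size) summed over those transcripts reached 5 in all 3 libraries. Together they held 2887 NM_ transcripts: 731 genes had 2, 226 had 3 and 155 had 4 or more, up to 10. Just inside the FPKM limit, the lowest library value was 5.01 for Alg12, 5.02 for Crlf2 and 5.03 for Tjp1. Just outside, it was 4.99 for Troap, 4.95 for Zkscan3 and 4.94 for Pacsin3. The measure used throughout is an isoform's share, the percentage of the gene's summed NM_ FPKM that 1 NM_ transcript holds in 1 library.

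C2C12 is an established mouse myoblast line that forms muscle in low serum and takes an osteoblast course when given BMP2, a bone morphogenetic protein. Mock-transfected cells and cells transfected with a short hairpin against KSRP gave 1 library each in growth medium with 20% serum. A further mock-transfected culture, labelled as differentiation medium (2% serum) with BMP2, gave the last library, and the labels give the BMP2 range as 100 to 300 ng/ml. Medium and BMP2 changed together there and cannot be told apart. KSRP, encoded by Khsrp, is an RNA-binding protein known for mRNA decay, microRNA processing and splicing. With 1 library per group nothing here is replicated, and no p-value was computed. Where 3 values of an isoform or gene stand in a row, they are those of the mock, labelled shKSRP and BMP2 libraries, in that order.

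Many genes make several mRNAs. Different promoters change the first exon, splicing changes inner exons, and different last exons change the 3′ end. Some of these choices alter the protein, while others change only the untranslated ends, through which stability and translation are controlled. In muscle cells such choices are well known for cytoskeletal and adhesion genes.

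Khsrp has 1 NM_ transcript and so is not among the 1112 genes. Its NM_ transcript stood at 15.5, 28.4 and 27.1 FPKM. The mock library also listed a 16-exon transcript of 15.9 FPKM overlapping Khsrp, which brought its sum to 31.4 FPKM. The NM_ value went against the hairpin label, and the sums, 31.4, 28.4 and 27.1 FPKM, lay close together. The term "labelled shKSRP" is therefore used, and every direction drawn from that library carries this limit. The depth of the libraries is unknown, because the files used give FPKM and no counts. Of 6 myoblast markers, 5 were above 0 in every library and Pax7 was at 0.118, 0 and 0 FPKM. Their sum was 364, 316 and 273 FPKM, most of it Des (279.8, 185 and 218). Cdh15 stood at 38.3, 27.5 and 5.02 FPKM, while Myod1 (25.3, 34.8 and 14.9), Myf5 (7.75, 48.4 and 9.09) and Ncam1 (13.0, 20.8 and 25.5) did not follow the order of the sum. Markers of fibroblast and mesenchyme summed to 100.4, 471 and 417 FPKM, mostly Col3a1. Those of differentiating muscle summed to 51.6, 69.8 and 85.6, mostly Acta1 (27.9, 45.5 and 61.9). Myog (9.54, 6.52 and 11.3), Tnnt3 (6.90, 0 and 0), Mymk and Ckm did not follow that order. Osteoblast markers summed to 13.6, 15.3 and 25.9, and Alpl (0.0518, 0.447 and 6.65) rose in that order. Bglap (7.34, 1.21 and 13.3), Runx2 (5.99, 13.6 and 5.88 on NM_ transcripts alone) and Sp7 (0.187, 0 and 0) did not, and Ibsp was at 0 in every library. Adipocyte markers summed to 20.1, 4.43 and 12.01, mostly Pparg (19.5, 3.90 and 6.86), while Fabp4 stood at 0.613, 0.531 and 5.10. Epithelial markers summed to at most 0.345 FPKM and endothelial markers to at most 0.0470. In bulk RNA, fewer cells of a type and less RNA per cell cannot be told apart. The part of these marker differences in the isoform results was not tested.

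Coding exons that separate a pair of isoforms are shown first, since several results turn on whether they are listed as kept or skipped. They come from GENCODE M21 transcripts on GRCm38, matched to the NM_ transcripts by cross-reference and by equal lengths of inner exons and introns. The exon is in capitals, and the 9 coding bases on each side are in lower case. The exons of Map3k7, Map2k7, Ndrg4, Cdk19 and Vegfa hold whole numbers of codons (27, 16, 13, 44 and 44). Those of Calu are a pair of which each isoform uses 1.
Map3k7 exon 12 of NM_009316, chr4:31994874-31994954, plus strand: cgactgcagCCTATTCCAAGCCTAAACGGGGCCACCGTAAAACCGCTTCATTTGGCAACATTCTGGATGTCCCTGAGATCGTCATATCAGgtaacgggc
Map2k7 exon 2 of NM_001164172, chr8:4240688-4240735, plus strand: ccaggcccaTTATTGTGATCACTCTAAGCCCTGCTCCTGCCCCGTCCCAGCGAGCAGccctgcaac
Ndrg4 exon 14 of NM_001195006, chr8:95712325-95712363, plus strand: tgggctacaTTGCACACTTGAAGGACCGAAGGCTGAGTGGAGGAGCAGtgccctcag
Cdk19 exon 6 of NM_001168304, chr10:40466638-40466769, plus strand: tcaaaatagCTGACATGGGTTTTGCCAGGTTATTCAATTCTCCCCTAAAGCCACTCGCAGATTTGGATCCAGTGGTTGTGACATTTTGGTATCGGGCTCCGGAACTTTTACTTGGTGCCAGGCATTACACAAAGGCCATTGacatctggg
Vegfa exon 6 of NM_009505, chr17:46020991-46021122, minus strand: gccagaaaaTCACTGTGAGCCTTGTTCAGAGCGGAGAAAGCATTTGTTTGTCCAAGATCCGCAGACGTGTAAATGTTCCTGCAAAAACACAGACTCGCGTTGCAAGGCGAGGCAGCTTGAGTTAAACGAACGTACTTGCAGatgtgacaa
Calu exon 3 of NM_007594, chr6:29361294-29361487, plus strand: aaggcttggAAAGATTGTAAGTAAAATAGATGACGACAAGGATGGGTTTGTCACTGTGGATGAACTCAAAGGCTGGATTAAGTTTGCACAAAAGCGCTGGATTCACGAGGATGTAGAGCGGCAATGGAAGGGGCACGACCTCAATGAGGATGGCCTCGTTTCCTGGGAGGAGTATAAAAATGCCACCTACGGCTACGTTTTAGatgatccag
Calu exon 3 of NM_184053, chr6:29361560-29361753, plus strand: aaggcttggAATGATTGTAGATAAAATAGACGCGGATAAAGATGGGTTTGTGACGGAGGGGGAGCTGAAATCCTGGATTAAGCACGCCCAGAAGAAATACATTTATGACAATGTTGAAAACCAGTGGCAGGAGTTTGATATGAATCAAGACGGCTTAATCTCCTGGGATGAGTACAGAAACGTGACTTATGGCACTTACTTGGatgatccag

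For Rara and Septin9, whose isoforms start at different first exons, the 250 bases before some of the starts are shown, from RefSeq on GRCm38.p6. These are the starts of the isoforms named with each window, and both genes have further listed starts. The windows were matched to the NM_ transcripts by the distance between starts, up to 2015 bases for Rara and 132054 for Septin9. Capitals mark each CG pair, the dinucleotide whose density separates CpG-island promoters from others. The windows of Rara hold 13 and 2 CG pairs and those of Septin9 hold 23, 18 and 3. Of 32851 RefSeq windows of this length, 31.5% hold 13 or more CG pairs, 13.3% hold 23 or more, 21.7% hold 18 or more, 71.0% hold 3 or more and 81.2% hold 2 or more.
Rara NM_009024, chr11:98937446-98937695, plus strand: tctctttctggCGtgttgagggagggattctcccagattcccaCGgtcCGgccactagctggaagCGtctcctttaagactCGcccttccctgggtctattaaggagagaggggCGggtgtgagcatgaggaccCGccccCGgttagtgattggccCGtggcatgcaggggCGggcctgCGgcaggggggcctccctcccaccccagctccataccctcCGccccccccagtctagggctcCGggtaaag
Rara NM_001177303, chr11:98939461-98939710, plus strand: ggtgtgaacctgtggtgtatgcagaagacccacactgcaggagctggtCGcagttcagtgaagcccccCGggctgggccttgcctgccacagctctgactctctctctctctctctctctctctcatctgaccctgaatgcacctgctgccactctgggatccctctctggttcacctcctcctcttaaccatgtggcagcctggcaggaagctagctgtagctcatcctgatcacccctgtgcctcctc
Septin9 NM_001113486, chr11:117199411-117199660, plus strand: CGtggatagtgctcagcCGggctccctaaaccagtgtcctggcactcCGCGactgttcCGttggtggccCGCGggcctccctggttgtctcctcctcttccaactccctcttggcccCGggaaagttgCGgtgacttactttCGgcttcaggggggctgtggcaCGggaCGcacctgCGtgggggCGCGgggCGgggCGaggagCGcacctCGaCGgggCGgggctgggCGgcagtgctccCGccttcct
Septin9 NM_001113487, chr11:117265996-117266245, plus strand: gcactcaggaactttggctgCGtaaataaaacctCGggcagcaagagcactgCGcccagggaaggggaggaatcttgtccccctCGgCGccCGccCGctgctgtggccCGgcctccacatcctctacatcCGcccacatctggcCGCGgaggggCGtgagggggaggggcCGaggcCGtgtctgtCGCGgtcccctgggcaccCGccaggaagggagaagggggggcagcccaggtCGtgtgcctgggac
Septin9 NM_017380, chr11:117331465-117331714, plus strand: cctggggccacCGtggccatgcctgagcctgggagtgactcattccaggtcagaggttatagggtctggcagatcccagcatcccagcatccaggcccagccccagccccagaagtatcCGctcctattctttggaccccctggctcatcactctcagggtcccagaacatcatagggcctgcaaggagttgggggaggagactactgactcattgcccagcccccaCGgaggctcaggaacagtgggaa

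A member was called shifted between 2 libraries when the share of at least 1 isoform differed by 20 percentage points or more and by more than the 95% half-width of that difference. The half-width stands after "±" and was propagated from the confidence limits that the authors' files give with each FPKM. It covers the assignment of fragments within a library, not the spread between cultures. An isoform listed at 0 has a half-width of 0, so intervals that involve one are too narrow. A listed 0 is also not an absence: of 1864 minor isoform values above 0, only 10 were under 10% of the gene's leading isoform, so the files hardly list anything lower. The calls rest on the same values as the choice of what is named here and are a description.

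Between the library labelled shKSRP and mock, 331 of 1112 members (29.8%) were called, where the share over all 1678 genes of this kind at 1 FPKM or more was 32.8%. A differing leading isoform was counted only in called members, here and below. The leading isoform differed in 151 members (13.6%), where the share over those genes was 16.2%. Between BMP2 and mock, 247 members (22.2%) were called beside 25.4%, and the leading isoform differed in 96 (8.63%) beside 11.1%. Between the library labelled shKSRP and BMP2, 215 members (19.3%) were called beside 22.2%, and the leading isoform differed in 82 (7.37%) beside 9.59%. The members' shares were near this background and below it each time. The members are 1112 of its 1678 genes, so the nearness is partly built in and nothing particular to them is read from it. In all, 706 members were called in no comparison. The first 2 comparisons share the mock library, so the 3 values of each isoform are given side by side.

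Isoform length moved with the calls. The gaining isoform was the longer one in 270 of 331 calls for labelled shKSRP against mock, 184 of 247 for BMP2 against mock and 148 of 215 for labelled shKSRP against BMP2. Where the isoforms differed by less than 5% in length, it was longer in 126 of 168, 94 of 135 and 64 of 98 calls. Among members where Cufflinks assembled no transcript of its own, it was longer in 94 of 102, 44 of 53 and 49 of 56 calls. Genes with a single NM_ transcript, which have no such isoforms to choose from, ran in the same direction. Over 544 such genes under 1000 nt the median log2 ratio of labelled shKSRP to mock was -0.62, and over 290 genes of 5000 nt or more it was 0.47. For BMP2 to mock these medians were -0.53 and 0.25, and for labelled shKSRP to BMP2 they were -0.13 and 0.30. The part of this library-wide length order in the isoform differences was not tested.

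**Figure D1:**
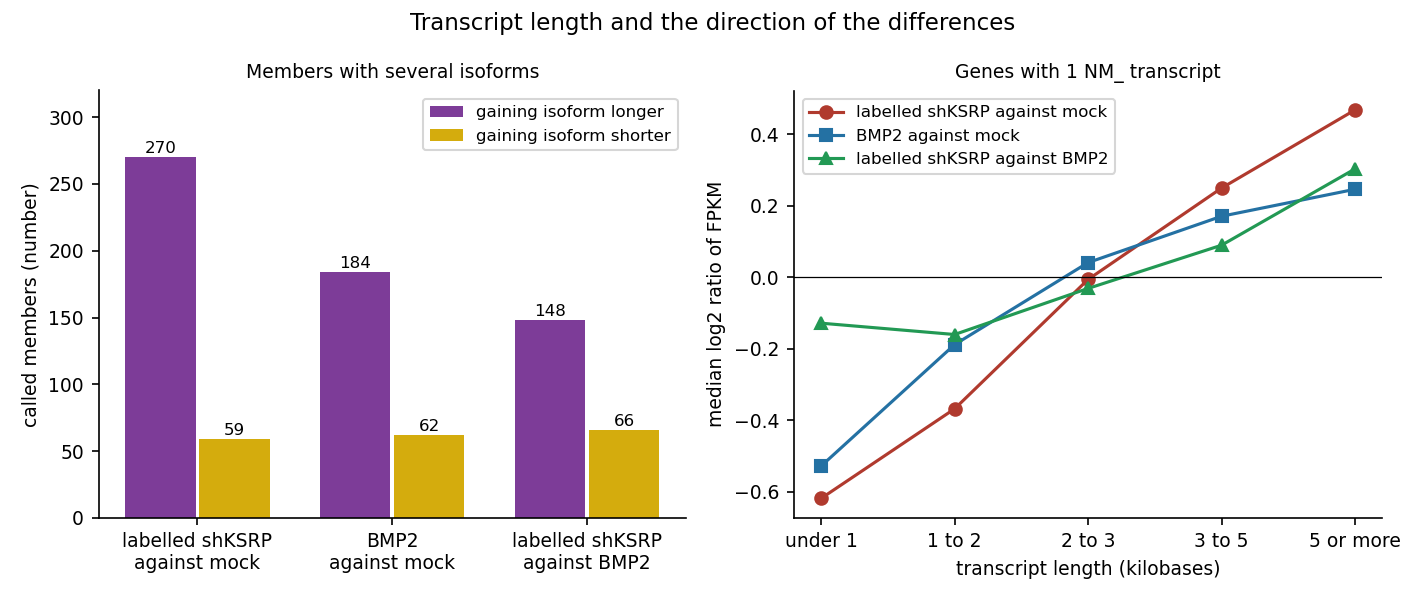
Left, the number of called members (vertical axis) whose gaining isoform was longer or shorter than the losing one, for each of the 3 comparisons. Right, the median log2 ratio of FPKM (vertical axis) of genes with 1 NM_ transcript by transcript length, where the shortest genes stand at -0.62 and the longest at 0.47 for labelled shKSRP against mock.

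Among the 331 calls for labelled shKSRP against mock, the gaining and losing isoforms had separate first exons in 129, separate last exons in 18 and only inner differences in 179. For BMP2 against mock these counts were 84, 23 and 138 of 247, and for labelled shKSRP against BMP2 they were 82, 17 and 110 of 215. Over all 1112 members, 325 (29.2%) had separate first exons, 105 separate last exons and 668 (60.1%) only inner differences. Where first exons differed, the gaining start lay upstream in 78 of 133, 41 of 85 and 53 of 88 calls. Among inner differences for labelled shKSRP against mock, 74 gained an exon, 16 lost one and 69 used another splice site. For BMP2 against mock these counts were 54, 13 and 55, and for labelled shKSRP against BMP2 they were 35, 21 and 39. A gained exon adds length, so these counts are not separate from the length order above. The coding sequence was the same in 81 of 273 matched pairs, 44 of 195 and 49 of 175, and in 26.1% over all members.

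**Figure D2:**
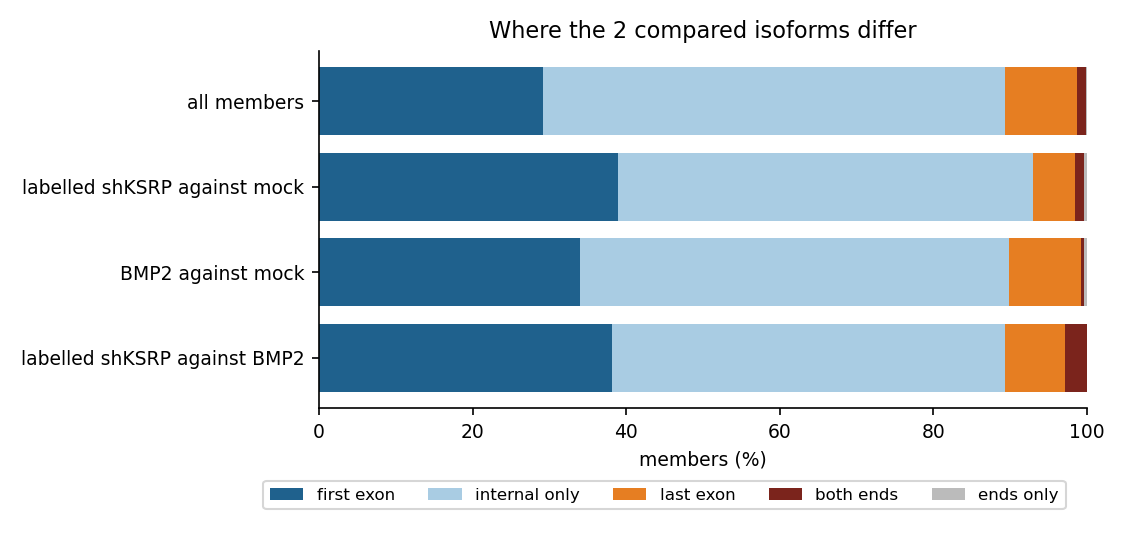
Percentage of members (horizontal axis) by where the 2 compared isoforms differ, for all 1112 members and for the called members of each comparison. For all members these are the 2 isoforms with the largest mean share, and for calls the gaining and losing ones. First-exon differences make up 29.2% over all members and 39.0% of the calls for labelled shKSRP against mock.

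Genes with a choice of first exon and no assembled transcript are described first. Nadk (chr4:154936501-154965110, mm9), the kinase that makes NADP from NAD, has 2 isoforms with the same coding sequence. NM_001159637, which starts 1423 bases downstream of the other, held 29.1% ± 1.0, 100% and 48.2% ± 1.3 of the NM_ FPKM. The other isoform was at 47.1, 0 and 26.3 FPKM, so the library labelled shKSRP stood apart from both mock-transfected libraries. Ncoa4 (chr14:32973078-32992549, mm9), the autophagy receptor for ferritin and a nuclear receptor coactivator, showed the same order with no value at 0. Its NM_001033988, which starts 5900 bases upstream, held 27.3% ± 1.4, 76.5% ± 1.3 and 36.7% ± 1.4. The difference was 49.2 ± 1.9 percentage points between labelled shKSRP and mock, and 39.8 ± 1.9 between labelled shKSRP and BMP2.

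Rara (chr11:98799010-98836256, mm9) encodes retinoic acid receptor alpha, a nuclear receptor. NM_009024, from the upstream start with 13 CG pairs, held 39.4% ± 2.5, 83.3% ± 1.4 and 36.9% ± 1.9. NM_001177303, from the start with 2, was at 4.63, 0 and 8.80 FPKM. NM_001176528, from a start downstream of both whose window is not shown, held 23.5% ± 2.2, 16.7% ± 1.4 and 22.6% ± 1.7. Tgif1 (chr17:71193545-71202872, mm9) encodes a homeodomain repressor of TGF-beta signalling. Its NM_009372 held 44.0% ± 1.9, 100% and 55.0% ± 2.1, and the 2 coding sequences differ at the start (816 against 756 nt). Socs2, a feedback inhibitor of cytokine receptors, held 41.6% ± 2.2, 75.9% ± 2.7 and 47.7% ± 2.4 in NM_007706. Jade1, a subunit of a histone acetyltransferase complex, held 78.4% ± 1.4, 17.3% ± 1.4 and 64.0% ± 2.4 in NM_001130184. In these 4 genes too, mock and BMP2 were the nearer pair for the isoform given.

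In other genes the library labelled shKSRP and BMP2 were the nearer pair. Slc19a1, the reduced folate carrier, gave all its NM_ FPKM to NM_001199271 in mock, and NM_031196 held 0%, 63.2% ± 2.7 and 53.1% ± 3.0. Fiz1, a zinc finger gene, had 24.7% ± 2.5, 100% and 66.8% ± 3.1 in NM_001110329. Its call between labelled shKSRP and BMP2 ended when zeros were read as 10% of the leading isoform, at 16.6 points. Mgat1, which starts the building of complex N-glycans, had 33.7% ± 1.3, 76.2% ± 1.1 and 61.0% ± 1.3 in NM_001110150. The coding sequence is the same within each of these 3 genes. Ccdc58 had 37.9% ± 2.2, 100% and 100% in NM_198645, which starts 9615 bases upstream.

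Kifc3, a minus-end kinesin, had 100%, 37.3% ± 2.5 and 62.6% ± 2.0 in NM_001145832, and NM_010631, which starts 29198 bases upstream, had 0%, 39.5% ± 2.4 and 37.4% ± 2.0. Txndc11, a thioredoxin-domain gene, had 26.3% ± 2.2, 100% and 40.2% ± 2.4 in NM_029582, which is 1757 nt longer than the other isoform. Arap1, a GTPase-activating protein, had 15.1% ± 1.9, 55.7% ± 2.7 and 17.5% ± 1.6 in NM_001040111, which is 2164 nt longer than the losing isoform. Both genes thus also carry large length differences. The gaining isoform for labelled shKSRP against mock was also longer in each first-exon gene described before them. The excess ran from 38 nt in Jade1 to 349 nt in Ccdc58. Olfm1, a secreted olfactomedin, had 62.5% ± 2.0, 100% and 58.4% ± 2.5 in NM_019498. Btbd6 listed NM_201646 only in BMP2, at 0%, 0% and 40.1% ± 3.0. Gtse1, Morf4l2 and Ssrp1 were chosen after their values were seen. Ssrp1, a subunit of the histone chaperone FACT, had 39.9% ± 0.78, 86.9% ± 0.72 and 59.0% ± 1.1 in NM_182990, which starts only 250 bases upstream. Gtse1, a cell cycle gene, had 0%, 35.6% ± 2.7 and 31.9% ± 3.2 in NM_001168672. Morf4l2, a chromatin gene, had 67.0% ± 0.68, 100% and 100% in NM_001168226.

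**Figure D3:**
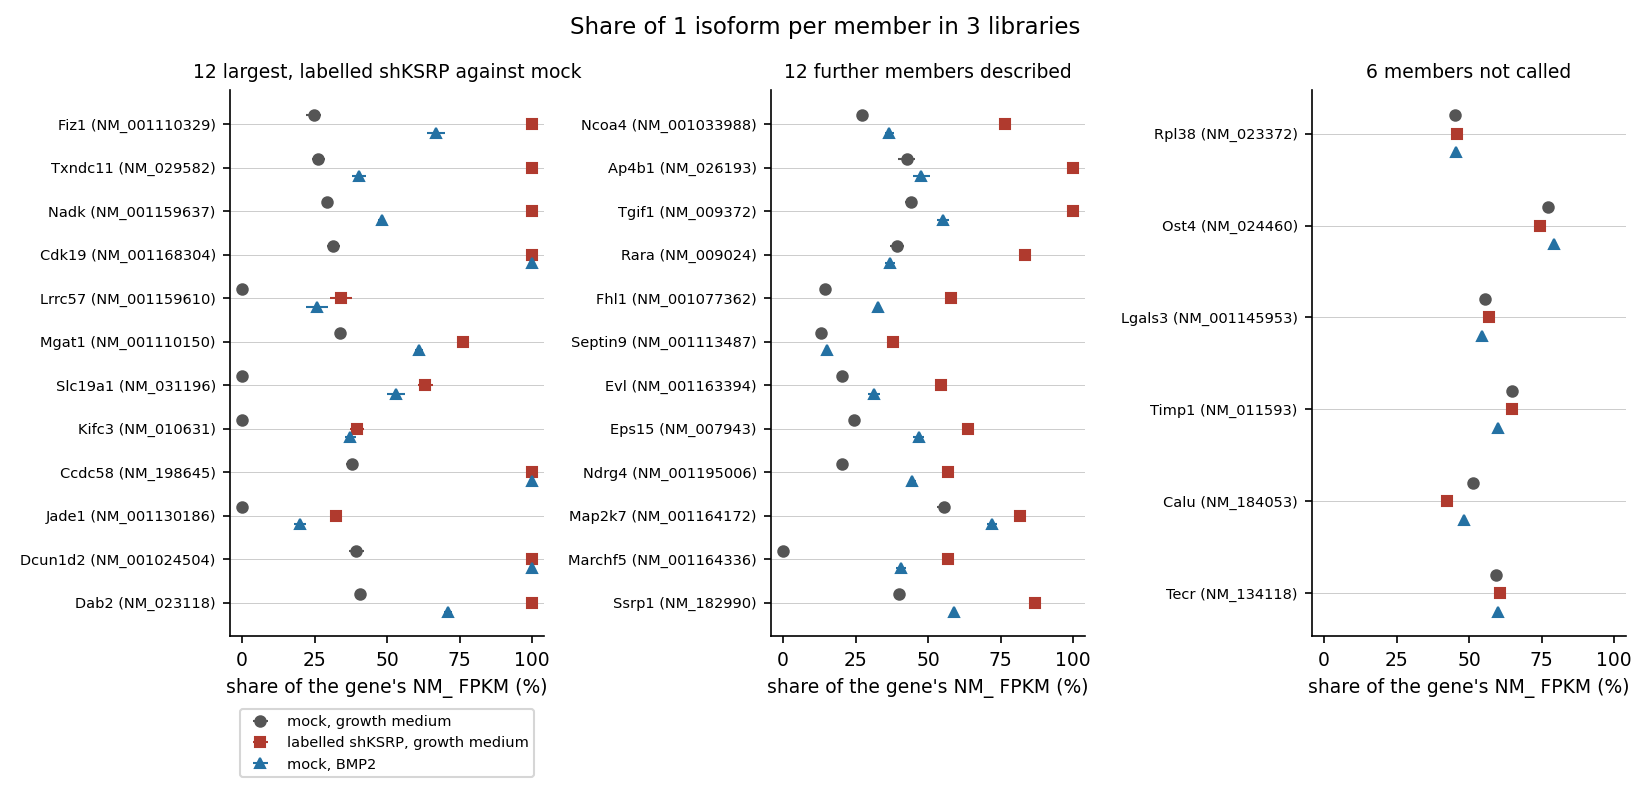
Share of 1 isoform in its gene's NM_ FPKM (horizontal axis, %) in the mock, labelled shKSRP and BMP2 libraries, with 95% half-widths as bars. The panels were filled by whether a gene was called, so the wider spread of the called genes is built in. Ncoa4 stands at 27.3%, 76.5% and 36.7%, while labelled shKSRP and BMP2 coincide at 100% in Cdk19. Rpl38 is shown by NM_023372, and its other isoforms differed more.

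Cytoskeletal genes had 9 of 20 members called for labelled shKSRP against mock, 3 for BMP2 against mock and 5 for labelled shKSRP against BMP2. These are 45%, 15% and 25%, beside 29.8%, 22.2% and 19.3% over all members. The median of the largest share difference was 15.4, 1.94 and 12.8 points, beside 6.32, 3.78 and 2.73 over all members. Nothing particular to a gene list is read from such counts and medians, which are given for each list in this order of comparisons. Septin9 (chr11:117060975-117223639, mm9), a GTP-binding filament protein, used 3 starts. NM_017380, from the start with 3 CG pairs, held 86.7% ± 0.62, 41.9% ± 0.69 and 69.5% ± 0.96. NM_001113487 held 13.3% ± 0.62, 37.8% ± 0.65 and 15.2% ± 0.74, and NM_001113486 held 0%, 20.3% ± 0.56 and 15.3% ± 0.77. NM_017380 was at 68.9, 60.1 and 48.0 FPKM and NM_001113487 at 10.5, 54.3 and 10.5, so the longer form differed more in level. Its coding sequence has 1728 nt against 1002.

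Evl, an Ena/VASP protein that extends actin filaments, had 20.5% ± 1.6, 54.4% ± 1.8 and 31.3% ± 2.1 in NM_001163394, which starts 81033 bases upstream of the losing isoform. Epb41l2, a membrane-skeleton linker, had 13.9% ± 0.97, 44.3% ± 1.2 and 28.7% ± 1.2 in NM_001199265, and an assembled transcript held 19.6% of the gene in BMP2. Fhl1 (chrX:53984964-54046523, mm9), a LIM-domain gene of striated muscle, moved towards a shorter isoform. NM_010211 was at 103, 18.1 and 65.0 FPKM and NM_001077362 at 17.6, 25.1 and 31.6. The share of NM_001077362, which starts 47901 bases downstream and is 32 nt shorter, was 14.6% ± 0.71, 58.1% ± 1.5 and 32.8% ± 1.0. Its coding sequence differs at the start, with 888 nt against 840. Tpm1, the tropomyosin gene, was chosen after its values were seen and has 10 NM_ transcripts, of which NM_024427 held 75.5% ± 0.53, 100% and 83.1% ± 0.43 and NM_001164252 the rest. With the 0 read as 10% of the leading isoform the difference between labelled shKSRP and mock was 15.4 points and was no longer called.

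Signalling genes had 13 of 33 members called for labelled shKSRP against mock, 11 for BMP2 against mock and 9 for labelled shKSRP against BMP2 (39.4%, 33.3% and 27.3%, beside 29.8%, 22.2% and 19.3% over all members). Their median largest differences were 15.8, 13.3 and 9.87 points. Map2k7 and Map3k7 are kinases of the JNK and p38 pathways, and Map3k7, also called TAK1, is activated by TGF-beta and BMP receptors. The Map2k7 isoform with the 48-nt exon, NM_001164172, held 55.4% ± 2.1, 81.9% ± 1.7 and 72.0% ± 1.8. The Map3k7 isoform with the 81-nt exon, NM_009316, held 25.5% ± 1.6, 0% and 20.5% ± 1.5, a move towards the shorter isoform. The library labelled shKSRP held an assembled Map3k7 transcript of 2.44 FPKM that shared 8 introns with NM_009316 and 6 with the shorter NM_172688. With the 0 read as 10% of the leading isoform, both Map3k7 calls ended, at -16.4 and -11.4 points. Shc1, the adaptor between receptor tyrosine kinases and Ras, had 0%, 36.4% ± 0.88 and 21.3% ± 0.90 in NM_001113331, with 1737 coding nt against 1407. Its BMP2 call ended with zeros so read, at 12.2 points. Map2k7 and Shc1 share their Cufflinks locus with another gene.

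Coding exons were also gained outside these lists. Cdk19 (chr10:40069114-40203624, mm9), a kinase of the Mediator complex, had 31.5% ± 2.4, 100% and 100% in the isoform with the 132-nt exon. Its NM_ FPKM was 6.58, 5.52 and 8.33, near the lower limit. Dcun1d2, a factor of cullin neddylation, had 39.4% ± 2.7, 100% and 100% in NM_001024504, which holds 2 further coding exons. Bfar, a ubiquitin ligase, had 50.3% ± 2.3, 100% and 100% in NM_025976, also with 2 further coding exons. Apoptosis and stress genes had 3 of 12, 2 and 1 called (25%, 16.7% and 8.33%, beside 29.8%, 22.2% and 19.3% over all members), with medians of 7.17, 1.19 and 0.392 points. Ndrg4 (chr8:98226937-98239019, mm9), one of the 3, kept both isoforms above 0. The isoform with the 39-nt exon held 20.5% ± 1.4, 57.0% ± 1.2 and 44.6% ± 1.3. It was at 6.16, 29.1 and 20.6 FPKM, while the isoform without the exon was at 23.9, 22.0 and 25.6.

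Among genes of membrane traffic, 5 of 22 members were called for labelled shKSRP against mock, 5 for BMP2 against mock and 4 for labelled shKSRP against BMP2 (22.7%, 22.7% and 18.2%, beside 29.8%, 22.2% and 19.3% over all members). Their median largest differences were 2.59, 1.67 and 0.465 points. Dab2, an adaptor for clathrin-mediated uptake, had 40.6% ± 1.4, 100% and 71.0% ± 1.3 in NM_023118, with 2298 coding nt against 1581 for NM_001102400. Its call between labelled shKSRP and BMP2 ended with zeros read as 10%, at 19.9 points. Eps15, a scaffold of clathrin-coated pits, had 24.6% ± 1.6, 63.9% ± 1.8 and 46.8% ± 1.9 in NM_007943. Sh3kbp1, an adaptor in receptor down-regulation, had 100%, 55.2% ± 0.97 and 84.6% ± 0.69 in NM_001135728.

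RNA-binding and splicing genes had 15 of 34 members called for labelled shKSRP against mock, 12 for BMP2 against mock and 8 for labelled shKSRP against BMP2 (44.1%, 35.3% and 23.5%, beside 29.8%, 22.2% and 19.3% over all members). Their median largest differences were 17.6, 12.8 and 5.04 points. Of the 34, 27 had an assembled transcript, and so had all but 1 of the 15. Puf60, a splicing factor that binds poly-U tracts, had none. Its NM_133691 held 35.5% ± 1.1, 73.2% ± 1.1 and 48.3% ± 1.2 and its NM_001164600 31.7% ± 1.1, 0% and 16.9% ± 0.93. The call between labelled shKSRP and BMP2 ended with zeros read as 10%, at 19.8 points.

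Transcription factor and chromatin genes had 11 of 31 members called for labelled shKSRP against mock, 9 for BMP2 against mock and 10 for labelled shKSRP against BMP2 (35.5%, 29.0% and 32.3%, beside 29.8%, 22.2% and 19.3% over all members). Their median largest differences were 13.8, 13.2 and 11.5 points. Ncoa4 was among them. Nfe2l1, an activator of proteasome genes at a shared locus, had 86.4% ± 0.58, 38.1% ± 0.54 and 68.1% ± 0.63 in NM_001130452, at a summed 76.7, 188 and 126 FPKM. Mlx, a partner of glucose-sensing transcription factors, had 27.9% ± 2.7, 0% and 20.8% ± 2.3 in NM_001159384, and both of its calls ended with zeros read as 10%, at -18.5 and -11.8 points. Proteostasis and translation genes had 5 of 21 called in each comparison (23.8%, 23.8% and 23.8%), with medians of 11.4, 0 and 10.5 points. Eif4a2, a helicase of translation initiation, had 27.1% ± 0.72, 0% and 0% in NM_001123037, and the library labelled shKSRP held an assembled transcript of 20.9 FPKM that shared 8 of its 9 introns. Matrix, adhesion and surface receptor genes had 4 of 21, 5 and 3 called (19.0%, 23.8% and 14.3%), with a median of 0 in every comparison. Cd151, a tetraspanin at a shared locus, had 0%, 28.9% ± 1.0 and 25.0% ± 0.70 in NM_009842. Metabolic genes had 4 of 18, 6 and 4 called (22.2%, 33.3% and 22.2%), with medians of 4.82, 1.37 and 0.357 points. Cell cycle genes had 3 of 9, 0 and 2 called (33.3%, 0% and 22.2%), with medians of 3.74, 0 and 4.09 points. Anapc11, a subunit of the anaphase-promoting complex at a shared locus, had 0%, 22.9% ± 1.3 and 0% in NM_025389, the shorter form by 155 nt, and both calls ended with zeros read as 10%, at -13.8 points for the longer form.

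Retained introns and splice sites made up further large differences. Ap4b1, a subunit of the AP-4 coat, has 2 listed forms that differ by a retained intron and share their coding sequence. Its spliced form NM_001163552 was at 5.11, 0 and 5.71 FPKM. Med22, a Mediator subunit, had 49.3% ± 2.0, 100% and 100% in NM_011513, which keeps an intron and is 2099 nt longer. Slc35a4, also differing by a retained intron, had 60.0% ± 1.2, 75.6% ± 1.2 and 100% in NM_026404. Lrrc57 had 100%, 32.6% ± 3.9 and 47.6% ± 4.2 in NM_025657, with the same coding sequence in the forms that gained. Cdv3 listed NM_175565 only in the library labelled shKSRP, at 0%, 40.02% ± 1.1 and 0%.

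Few members differed in the last exon. Marchf5 (chr19:37282035-37298947, mm9), a mitochondrial ubiquitin ligase, moved towards a much shorter form. NM_027314, with the distal end, was at 30.6, 19.5 and 26.6 FPKM. NM_001164336, which is 2797 nt shorter and ends 3381 bases upstream, held 0%, 56.9% ± 1.4 and 40.8% ± 1.7. As a share of fragments instead of FPKM, NM_027314 changed by -18.1 points between mock and BMP2, under the limit. Dnajb6 (chr5:30062438-30113018, mm9), a co-chaperone mutated in a limb-girdle muscular dystrophy, had 50.2% ± 1.3, 62.2% ± 1.0 and 72.8% ± 0.77 in its short NM_011847. That form ends 19377 bases upstream and has 726 coding nt against 1095. It was at 33.1, 44.1 and 82.0 FPKM, and the long form at 32.9, 26.8 and 30.6.

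Other moves to a shorter form involved small sequence differences. Tmem134 had 37.8% ± 1.5, 0% and 0% in NM_001078649, which is 45 nt longer than the form that gained. Fance and Tsr2 were chosen after their values were seen. Fance, a Fanconi anaemia gene, had 0%, 18.0% ± 2.7 and 22.5% ± 3.5 in the form without its 126-nt exon, called between BMP2 and mock. With the 0 read as 10% of the leading isoform that difference was 13.4 points and the call ended. Tsr2, a factor of ribosome assembly, had 73.4% ± 2.0, 100% and 75.7% ± 2.7 in the form that is 9 nt shorter. With zeros so read both of its calls ended, the longer form changing by -17.5 and -15.2 points in the library labelled shKSRP against mock and BMP2.

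Cufflinks also assembled transcripts of its own, which took reads at 701 of the 1112 members: 401, 391 and 426 in the 3 libraries. At 624 members they held 20% or more of the gene's FPKM in at least 1 library. For labelled shKSRP against mock, 229 of the 701 and 102 of the 411 others were called. For BMP2 against mock these counts were 194 and 53, and for labelled shKSRP against BMP2 they were 159 and 56. The gaining or losing isoform was at 0 in a library in 243 of 331, 185 of 247 and 156 of 215 calls. In 131, 114 and 107 of these, the library with the 0 had an assembled transcript. In 69, 58 and 61 of those, it shared more introns with the isoform at 0 than with the other isoform.

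Runx2 (chr17:44740950-44951746, mm9) encodes the transcription factor that directs osteoblast formation. NM_009820, from the upstream first exon, was at 5.99, 7.45 and 0 FPKM. NM_001145920, which starts 78149 bases downstream, was at 0, 6.17 and 5.88 FPKM. On NM_ transcripts alone the whole share changed hands between mock and BMP2. In BMP2, an assembled 8-exon transcript of 6.87 FPKM had a first exon overlapping that of NM_009820. In mock, an assembled 6-exon transcript of 2.56 FPKM had one overlapping that of NM_001145920. Transcripts from both starts were thus listed in both libraries. Assembled transcripts held 29.9%, 0% and 68.3% of the gene.

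Ncam1, the neural cell adhesion molecule, had NM_001081445 at 13.0, 0 and 10.6 FPKM and NM_010875 at 0, 20.8 and 14.9. NM_010875, which gained, is 1299 nt shorter, ends 12993 bases upstream and has 2175 coding nt against 2544. The library labelled shKSRP held a 19-exon assembled transcript of 25.3 FPKM that shared 16 of 17 introns with NM_001081445, listed at 0 there. In mock, a 5-exon assembled transcript of 11.4 FPKM had a last exon overlapping that of NM_010875 alone, which was listed at 0 in mock. Vegfa, which encodes an angiogenic factor, was chosen after its values were seen. NM_009505, with the 132-nt exon, was at 21.1, 0 and 22.3 FPKM and NM_001025257, without it, at 0, 20.0 and 0. A further isoform, NM_001110268, was at 0, 0 and 11.8 FPKM and held 34.7% in BMP2. Between BMP2 and mock the share of NM_009505 thus changed by -34.7 points, which was called. With assembled transcripts in the denominator it changed by 1.67 points. In mock, an assembled transcript of 36.0 FPKM shared 4 introns with NM_001025257 and 3 with NM_009505. One of 23.5 FPKM in BMP2 likewise shared 4 introns with NM_001025257 and 3 with NM_009505. In the library labelled shKSRP, one of 25.4 FPKM shared 5 with NM_009505 and 3 with NM_001025257, and another of 8.88 FPKM shared 3 and 4. Myef2, an RNA-binding repressor, listed NM_010852 at 14.1, 0 and 0 FPKM and NM_001162418, which is 72 nt shorter, at 0, 12.2 and 11.5, with 53.2%, 60.2% and 59.1% of the gene in assembled transcripts. In mock, the assembled transcript shared 13 introns with NM_001162418 and 12 with NM_010852. In labelled shKSRP and in BMP2 it shared 12 and 14. In each library it thus shared more with the isoform of this pair listed at 0.

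**Figure D4:**
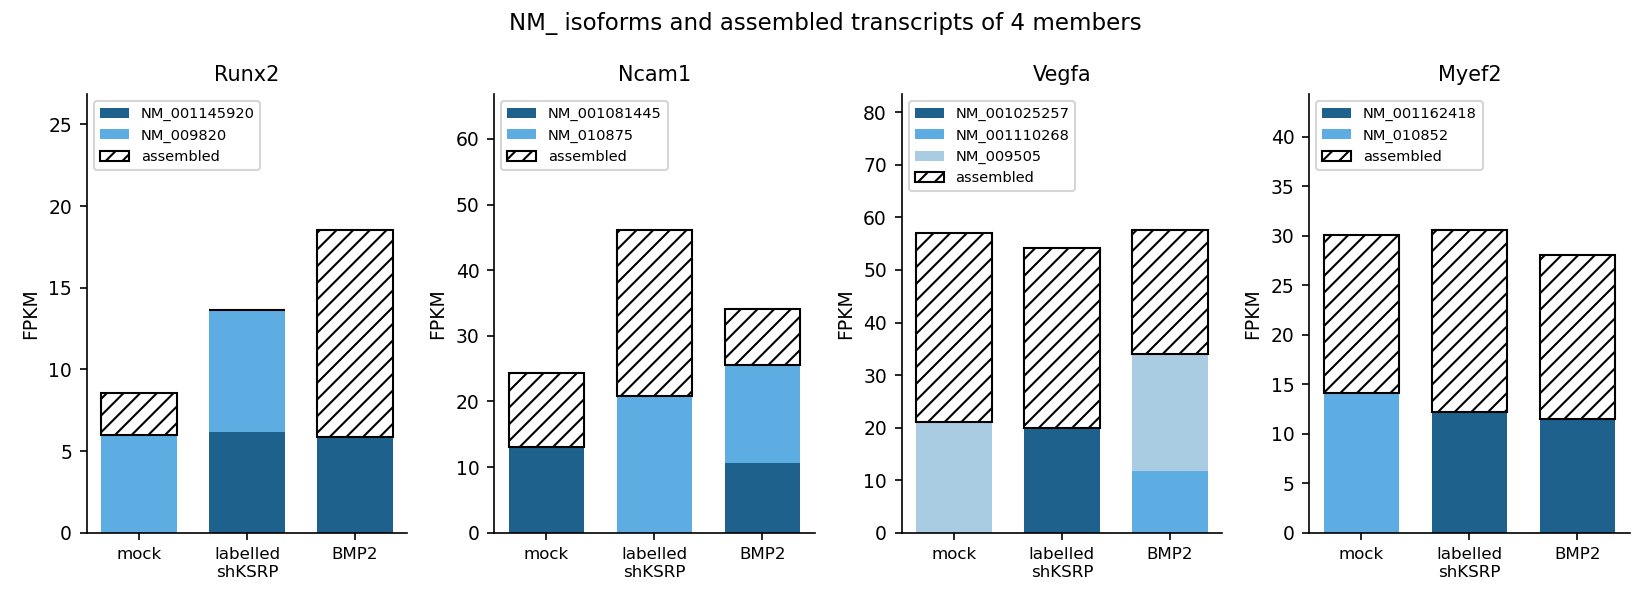
FPKM (vertical axis, stacked) of each NM_ transcript and of assembled transcripts (hatched) at Runx2, Ncam1, Vegfa and Myef2 in the 3 libraries. Assembled transcripts, which are not counted in the NM_ shares, reach 68.3% of Runx2 in BMP2.

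Gaa, lysosomal acid alpha-glucosidase, exchanged NM_001159324 (12.7, 0 and 0 FPKM) for NM_008064 (0, 54.4 and 17.8 FPKM), which has the same coding sequence. Its assembled transcript shared 18 introns with NM_008064 in mock and 18 with NM_001159324 in the library labelled shKSRP, in each case the isoform listed at 0. Cnbp, a nucleic acid-binding zinc finger gene, had 89.0%, 76.1% and 85.9% of its FPKM in assembled transcripts. With those in the denominator its differences were 14.0, 14.1 and -14.1 points and none was called. Vamp5, a SNARE of muscle cells, had 95.1%, 92.4% and 80.5% assembled and lost both calls in the same way. Hnrnpc, a splicing factor, gave 100% to NM_001170981 in the library labelled shKSRP, where 77.8% of the gene was assembled, and spread over its other 4 isoforms in mock and BMP2. Ubtf, a factor of ribosomal RNA transcription, and Tor1aip1, of the inner nuclear membrane, had assembled shares of up to 86.5% and 58.7%.

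Of the 706 members called in no comparison, 155 had a second isoform of 20% or more in every library. Calu (chr6:29298119-29326675, mm9), an EF-hand protein of the endoplasmic reticulum, uses either of its 194-nt exons, and its 2 isoforms have equal length. NM_007594 held 48.6% ± 0.59, 57.7% ± 0.57 and 51.7% ± 0.52, at a summed 213, 196 and 274 FPKM. The difference of 9.13 ± 0.82 points between labelled shKSRP and mock exceeded its half-width and stayed under the limit for a call. Tecr, a reductase of fatty acid elongation, had 59.2% ± 1.1, 60.5% ± 1.1 and 59.9% ± 0.84 in NM_134118. Its NM_ FPKM was 181, 167 and 311, and 53.0%, 0% and 0% of the gene was in assembled transcripts. Lgals3, which encodes galectin-3, had 55.4% ± 0.57, 56.8% ± 0.84 and 54.4% ± 0.57 in NM_001145953, at 576, 242 and 582 NM_ FPKM, with 49.7%, 32.1% and 0% of the gene assembled. Timp1, an inhibitor of metalloproteinases, had 64.8% ± 0.54, 64.9% ± 1.1 and 59.9% ± 0.73 in NM_011593, at 969.8, 227 and 552 NM_ FPKM, with 0%, 0% and 46.6% of the gene assembled. Ost4, a subunit of oligosaccharyltransferase, had 77.1% ± 1.1, 74.4% ± 1.2 and 79.2% ± 0.99 in NM_024460. Rpl38, a ribosomal protein gene at a shared locus, had 45.1% ± 0.93, 45.8% ± 1.0 and 45.5% ± 1.1 in NM_023372, 40.7% ± 1.0, 41.2% ± 1.1 and 54.5% ± 1.1 in NM_001048058 and 14.2% ± 0.60, 13.0% ± 0.62 and 0% in NM_001048057. Its leading isoform was thus NM_023372 in the first 2 libraries and NM_001048058 in BMP2. The counts of differing leading isoforms leave this out, because Rpl38 was not called. Cd44, a surface receptor chosen after its values were seen, listed 1 of its 6 NM_ transcripts above 0, at 99.6, 57.8 and 44.4 FPKM.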

How the data were processed

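Polyadenylated RNA of C2C12 cells was sequenced, 1 library per group. Per the submitters' processing notes, mm9 was the build and the tools were Cufflinks 1.3.0, TopHat 1.4.1, Bowtie 0.12.7 and CASAVA 1.8. The deposited transcript files hold the authors' FPKM with confidence limits for RefSeq transcripts and for transcripts that Cufflinks assembled in each library. The score in the deposited files was not used.

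NM_ identifiers were paired with symbols through RefSeq (25500), GENCODE (117) or the files' own names (179), and 224 kept their accession. Of 3514 genes with several NM_ transcripts, 100 at several places and 111 with repeated placements were left out. Shares and half-widths were computed in Python 3.11.15 with pandas 2.3.3 and NumPy 2.4.6, treating transcripts as independent, and tested on simulated data. Calls follow the size of a difference and its half-width, without a test. Assembled transcripts count where they share exonic bases with a member and are not on the opposite strand. Of 2887 NM_ transcripts, 2551 were matched to GENCODE M21.

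Named genes were the called members with the largest differences per comparison (without and with assembled transcripts), those per gene list with assembled transcripts under 20% of the gene, and the most abundant steady members. A gene that the rule names is not reported here. Members and lists were chosen with earlier results of these data known. Alternatives changed the FPKM and share limits, the treatment of assembled transcripts and zeros, and fragments for FPKM.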

Additional observations from a re-analysis of the deposited data

How the results depend on the processing

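Counts of shifted members and of members with another leading isoform are given in the order labelled shKSRP against mock, BMP2 against mock, labelled shKSRP against BMP2. With a minimum of 20 FPKM, 436 members remained and 124, 79 and 76 were called, with another leading isoform in 55, 25 and 28. With a minimum of 1 FPKM the counts were 550, 427 and 373, and 271, 187 and 161. At 10 percentage points 497, 427 and 386 were called, and at 30 points 149 for BMP2 against mock and 116 for labelled shKSRP against BMP2. With assembled transcripts in the denominator 569, 463 and 438 were called. Among the 411 members with no assembled isoform 102, 53 and 56 were called, with another leading isoform in 51, 14 and 22. Among members with no isoform at 0 in either library (250, 255 and 276) the counts were 50, 35 and 35, and 41, 19 and 24. Keeping only called pairs whose lengths differ by less than 5%, chosen after seeing the data, left 168, 135 and 98, and 71, 45 and 40. The last 3 settings leave fewer members by construction. Counts not given here moved by less than 1.5 times.

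Of 112 differences of genes named by the rule, 2 reversed with assembled transcripts in the denominator: Tor1aip1 NM_001160018 between labelled shKSRP and BMP2, at -2.38 points, and Ubtf NM_001044383 between BMP2 and mock, at -1.47 points. A difference counted as still called when any isoform of its gene met the limits in that comparison, even if the named isoform did not. By that count, 106 of the 112 were still called with assembled transcripts in the denominator and 99 with zeros read as 10% of the leading isoform. That reading, like a minimum of 100 differing exonic bases, was chosen after seeing the data. Beyond the genes given with it above, it ended calls of Jade1 (-12.7 points, BMP2 against mock), Slc35a4 (15.3, labelled shKSRP against BMP2) and Ubtf (16.2, BMP2 against mock). No paired analysis was possible because each group has 1 library. Depth is unknown, and the median half-width of a leading share was 1.79, 1.54 and 1.81 points in mock, labelled shKSRP and BMP2.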
